A study of Mus musculus with 2 samples.

Results

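The complement genes C1qa, C1qb, C1qc, C1ra, C3, C4b, Cfb, Serping1 and Cd55 were examined in RNA sequencing of mouse heart. These 9 genes were given by name, and each deposited transcript identifier, without its version, was matched to GENCODE M21. All 9 were in the table, with 15 of their 28 annotated transcripts, among 12395 genes and 23178 transcripts listed in all. The CHAPIR group was C57BL/6 heart after a mimic of the heart PIWI-interacting RNA CHAPIR, with a dose of 30 mg/kg and delivery by osmotic minipump for 14 days. The NC group was C57BL/6 heart after a scrambled mimic delivered by pump in the same way, with no dose of its own in the labels. Age and sex are not stated in the labels, nor whether a library came from 1 animal or a pool. Each group held 1 library, so the differences below describe 2 libraries, with no test, no error and no replicate check.

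Complement is a cascade of plasma proteins that tags particles and cells for removal. In the classical pathway C1q binds its target, C1r and C1s are then activated and cleave C4 and C2, and the resulting convertase cleaves C3. In the alternative pathway factor B, the product of Cfb, pairs with C3b to form a convertase that amplifies the deposition of C3. The C1 inhibitor Serping1 and the membrane protein Cd55 restrain these steps. The liver makes most plasma complement, while macrophages are a main source of C1q and fibroblasts and other tissue cells also transcribe complement genes.

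Promoter sequences were available from RefSeq (GRCm38.p6) for 5 of the 9 genes, each from 250 bases before the transcription start to 50 bases after it. C1qa, C4b, Cfb and Serping1 had no entry. The windows of C3, the most abundant of the 9 genes in the CHAPIR library, and of C1qb, the C1q chain with the highest log2 ratio, are shown 5′ to 3′ in the direction of transcription. They are chr17:57228087-57228386 (minus strand) for C3 and chr4:136886151-136886450 (minus strand) for C1qb. Capitals mark matches to any of 4 motifs searched on both strands, namely the STAT site GAS (TTCNNNGAA), the interferon element ISRE (GAAANNGAA), NF-kB (GGGANTTTC) and C/EBP (TTGCNNAA).
C3: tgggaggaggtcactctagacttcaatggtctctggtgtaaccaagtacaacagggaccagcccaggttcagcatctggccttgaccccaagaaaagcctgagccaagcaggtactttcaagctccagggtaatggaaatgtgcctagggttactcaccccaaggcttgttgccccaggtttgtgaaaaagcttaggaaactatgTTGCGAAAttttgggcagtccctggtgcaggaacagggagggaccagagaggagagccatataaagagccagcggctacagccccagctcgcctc
C1qb: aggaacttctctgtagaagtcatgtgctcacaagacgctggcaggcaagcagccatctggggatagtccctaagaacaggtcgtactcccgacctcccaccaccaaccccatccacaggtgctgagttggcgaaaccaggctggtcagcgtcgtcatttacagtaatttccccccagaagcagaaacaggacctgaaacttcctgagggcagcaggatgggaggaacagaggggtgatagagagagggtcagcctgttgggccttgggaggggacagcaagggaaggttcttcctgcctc
C3 held 1 C/EBP match, whose first base lay 45 bases before the start, and C1qb held none of the 4. C1ra held 1 C/EBP match on the opposite strand, at bases 17 to 24 after the RefSeq start, and 1 GAS match at bases 33 to 41, which did not overlap. That start lies 216 bases downstream of the GENCODE start of C1ra. C1qc, whose RefSeq start lies 151 bases downstream of the GENCODE start, and Cd55 held no match in these windows. Of 32851 mouse promoters of this length, 10.8% held the C/EBP letters, 8.56% ISRE, 8.30% GAS and 1.11% NF-kB. A match describes the letters of the window and is not evidence of binding.

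Values are taken to be FPKM (fragments per kilobase of transcript, scaled per library), a scale per length on which levels can be set beside each other across genes. Listed transcripts of a gene were summed, and 1 was added to each sum before the log2 ratio of CHAPIR to NC was taken, so differences of low genes are understated. Summed over all transcripts the values came to 401938 for CHAPIR and 394675 for NC, and the read depth is unknown. Cardiomyocyte markers fit the heart label, with all 10 present at summed levels of 18534 FPKM with CHAPIR and 19423 FPKM with NC, from Myl7 (481 against 616 FPKM) to Pln (612 against 602 FPKM). Y-linked genes summed to 51.6 FPKM in the CHAPIR library and were listed at 0 for NC, from Kdm5d (1.45 FPKM) to Eif2s3y (22.1 FPKM). Xist, a non-coding RNA, reached 1 FPKM in neither library. Since 99.7% of the matched transcripts were protein coding, this does not tell the sex of either library. Sex and mimic thus cannot be told apart in any difference below.

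All 9 complement genes had higher values in the CHAPIR library. Of these, 7 were at least 1.5-fold higher on the log2(FPKM + 1) scale, 0 were 1.5-fold lower, and 3 (Cfb, C4b and C3) were at least 2-fold higher. Among all 11416 genes that reached 1 FPKM in either library, 6.81% were 1.5-fold higher, 3.85% were 1.5-fold lower and 2.58% were 2-fold higher. The median log2 ratio was 0.75 for the 9 genes and 0.01 for all genes tested. Since the 9 genes were chosen with earlier results of these data known, their count beside the background is a description only. In order of log2 ratio, the genes were Cfb, C4b, C3, C1qb, C1ra, C1qc, C1qa, Cd55 and Serping1. Among these 9, with all listed transcripts summed, the convertase genes thus led and the regulators came last. The order holds for the 9 only, since the convertase gene C2, outside them, was at 0.27, below Cd55 and Serping1.

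**Figure D1:**
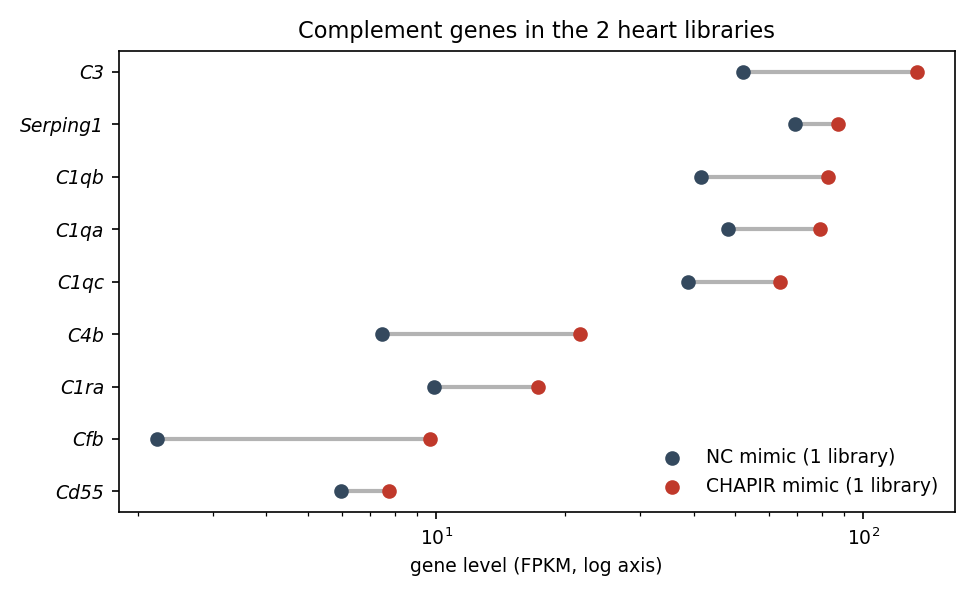
Gene level in FPKM (log axis) of each of the 9 complement genes in the NC library (dark points) and the CHAPIR library (red points), 1 library each, joined by a grey line. Every red point lies to the right of its dark point, from 9.65 against 2.21 FPKM for Cfb to 87.3 against 69.2 FPKM for Serping1.

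The order of the levels differed between the libraries. Serping1 was the most abundant of the 9 in the NC library and C3 in the CHAPIR library, where C3 ranked 322 among all genes tested, against 813 in the NC library. Cfb was the least abundant in the NC library and passed Cd55 in the CHAPIR library. C4b lay below C1ra in the NC library and above it in the CHAPIR library, and C1qb likewise changed places with C1qa. With 1 library per group, the spread of neighbouring levels is unknown, so none of these orders can be tested.

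**Figure D2:**
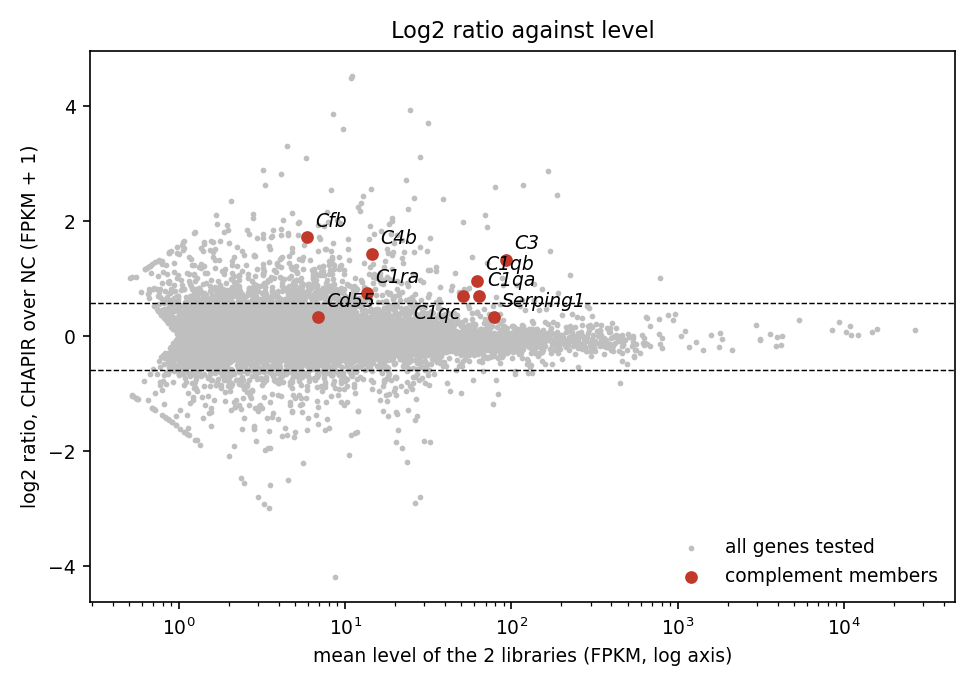
Log2 ratio of CHAPIR over NC (FPKM + 1) against the mean level of the 2 libraries (FPKM, log axis) for 11416 genes (grey) and the 9 complement genes (red), with dashed lines at 1.5-fold. Of the 9 genes, 7 lie above the upper line, and Cd55 and Serping1, both at 0.33, lie between the lines.

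The recognition molecule C1q is assembled from A, B and C chains, each the product of its own gene. C1qa was at 79.0 FPKM with CHAPIR and 48.3 FPKM with NC, a log2 ratio of 0.70. C1qb was at 82.4 against 41.7 FPKM, for a log2 ratio of 0.97. C1qc was at 63.8 against 38.9 FPKM, for a log2 ratio of 0.70. All 3 chains were thus more than 1.5-fold higher in the CHAPIR library, where 3.85% of the 1766 genes with a mean of 20 to 100 FPKM were. Their summed level was 225 FPKM against 129 FPKM. The chains stayed close to equal abundance. C1qa, C1qb and C1qc made up 35.1%, 36.6% and 28.3% of that sum with CHAPIR, and 37.5%, 32.4% and 30.2% with NC, so C1qb took the larger share of the difference.

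The 3 C1q genes lie side by side on the minus strand of chromosome 4 (GRCm38, GENCODE M21). C1qb spans 136880129 to 136886187, C1qc 136889804 to 136893065 and C1qa 136895917 to 136898803, with gaps of 3.62 and 2.85 kb. Each was read from 1 listed transcript with 3 exons. The only other measured gene within 100 kb was Zbtb40, at 1.23 against 1.68 FPKM, lower in the CHAPIR library. The transcripts of the chains are related but distinct, with 61.6% to 63.5% identity over their best local alignments and 0 shared stretches of 75 bases, a length like that of a read.

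The serine proteases C1r and C1s are the enzymes of the C1 complex. C1ra (chromosome 6, 124512405 to 124523443, plus strand) was at 17.3 FPKM with CHAPIR and 9.89 FPKM with NC, a log2 ratio of 0.75. C1s1, which encodes the partner protease C1s and lies 6.90 kb away on the opposite strand, was at 31.3 against 19.1 FPKM, for a log2 ratio of 0.69. Read without the copy of C1ra described next, both protease genes were higher by similar amounts. The quotient of C1ra to C1s1 was then 0.552 with CHAPIR and 0.519 with NC. The summed C1q chains were 13.02 times the level of C1ra alone in each library. Both quotients depend on how reads were split between C1ra and that copy.

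C1ra has a near-identical copy, C1rb, 46.9 kb away on the same strand, which was listed at 0 with CHAPIR and at 1.74 FPKM with NC. The first 60 coding bases of the GENCODE transcripts C1ra-201 and C1rb-201 show how alike the copies are, with the 1 differing base in capitals.
C1ra: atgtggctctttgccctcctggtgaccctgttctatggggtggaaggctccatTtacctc
C1rb: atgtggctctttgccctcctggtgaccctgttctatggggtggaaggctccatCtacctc
The transcripts were 98.0% identical over 2428 aligned bases, and 40.1% of the 75-base stretches of C1ra also occur in C1rb. No source used here says how reads that match both copies were shared, so the split between them is uncertain. Summed over both copies the level was 17.3 against 11.6 FPKM, for a log2 ratio of 0.53, which is under the 1.5-fold line of 0.58. It is also below the 0.69 of C1s1. On that sum the quotient to C1s1 would be higher with NC than with CHAPIR. The quotient of the C1q chains to that sum would be lower with NC.

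C3 and C4 carry the thioester through which complement fragments attach to surfaces, and both were more than 2-fold higher in the CHAPIR library. C3 (chromosome 17, 57203970 to 57228136, minus strand) was at 133 FPKM with CHAPIR and 52.3 FPKM with NC, a log2 ratio of 1.33. Its full-length transcript C3-201, with 41 exons, held 99.4% and 97.7% of the gene's level, at 133 against 51.1 FPKM. The short C3-204, with 4 exons and 315 bases, was at 0.75 against 1.19 FPKM, so the higher level of C3 was that of the full-length transcript.

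C4b (chromosome 17, 34728380 to 34743882, minus strand) encodes the C4 that the classical pathway cleaves. It was at 21.6 FPKM with CHAPIR and 7.44 FPKM with NC, a log2 ratio of 1.42, read from the 41-exon transcript C4b-201. The quotient of C4b to C3 was 0.162 with CHAPIR and 0.142 with NC. C4a, 65.2 kb away, was not listed, and its 10 annotated transcripts are all of non-coding types in GENCODE M21. The longest of them is 96.1% identical to C4b-201, and 23.5% of the 75-base stretches of C4b-201 also occur in it, so reads of both genes may have been counted for C4b.

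Factor B is the protease of the alternative pathway convertase. Cfb (chromosome 17, 34856374 to 34862518, minus strand) was at 9.65 FPKM with CHAPIR and 2.21 FPKM with NC, a log2 ratio of 1.73, and 0.60% of all genes tested had a ratio at least as high. C2, its classical pathway counterpart, lies 86 bases away on the same strand and was at 2.39 against 1.80 FPKM, for a log2 ratio of 0.27. The quotient of Cfb to C2 was 4.04 with CHAPIR and 1.23 with NC, so these adjacent genes did not keep the same proportion.

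The value of Cfb depended on which transcripts were read. Cfb-206 was at 5.03 FPKM and Cfb-207 at 1.64 FPKM with CHAPIR, and both stood at 0 in the list for NC. Cfb-202 was at 1.51 against 0.68 FPKM, and Cfb-201 at 1.47 against 1.53 FPKM. The 2 transcripts above 0 in both libraries summed to 2.98 against 2.21 FPKM, for a log2 ratio of 0.31, so without the transcripts listed at 0 Cfb was under 1.5-fold. The 4 transcripts have 18 exons each and share 99.5% to 100% of their bases with Cfb-201, and 5 bases of Cfb-206 lie outside Cfb-201. The read-through gene Gm20547, which joins Cfb and C2 on the same strand and holds 81.6% of the 75-base stretches of Cfb-201, was not listed.

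**Figure D3:**
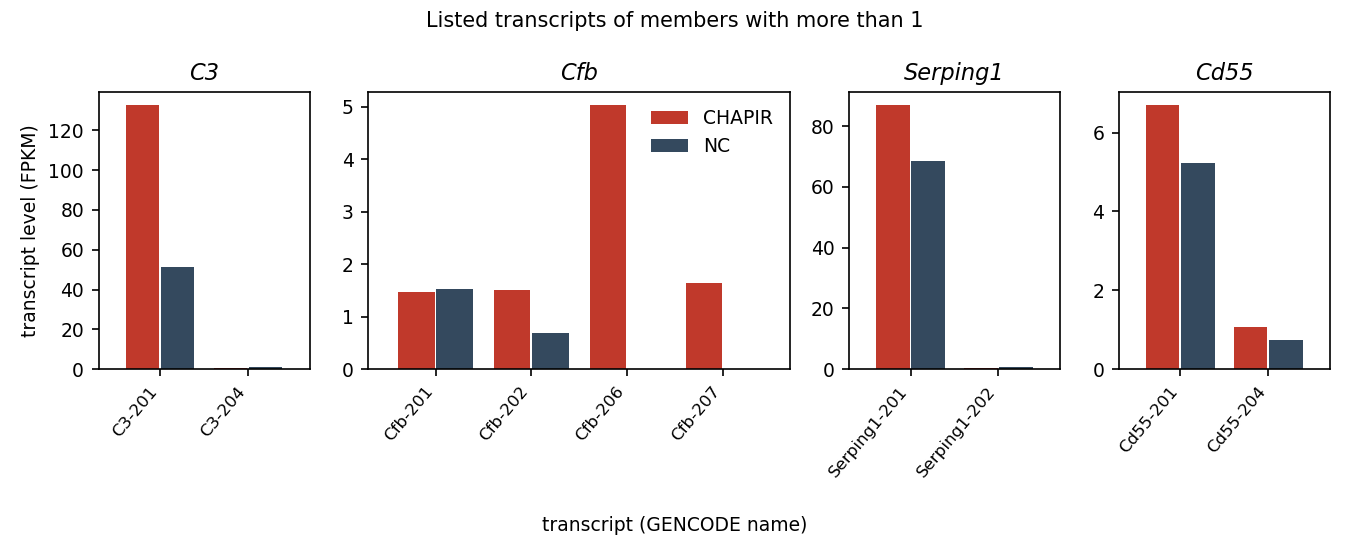
Transcript level in FPKM (bars from 0, 1 library each) in the CHAPIR library (red) and the NC library (dark) for the 4 complement genes with more than 1 listed transcript. C3, Serping1 and Cd55 are mostly 1 transcript in each library, while in Cfb the CHAPIR bars of Cfb-206 (5.03 FPKM) and Cfb-207 (1.64 FPKM) stand beside NC values listed at 0.

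Counted by transcript, 14 of the 15 listed transcripts reached 1 FPKM in at least 1 library, of which 8 were 1.5-fold higher and 0 were 1.5-fold lower. Among all 18413 such transcripts 16.2% were 1.5-fold higher and 13.7% were 1.5-fold lower. The 8 were those of the C1q chains, C1ra-201, C3-201, C4b-201, Cfb-206 and Cfb-207. The remaining 13 annotated transcripts of the 9 genes were not listed. A transcript below 0.5 FPKM in both libraries has no row in the table, and 99.7% of the matched transcripts are protein coding. Most of the 13 are annotated as other types, so their absence need not mean a low level.

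The regulators among the 9 had the lowest log2 ratios with all listed transcripts summed, while Cfb was at 0.31 without its transcripts listed at 0. Serping1 (chromosome 2, 84765387 to 84775444, minus strand), the inhibitor of C1r and C1s, was at 87.3 FPKM with CHAPIR and 69.2 FPKM with NC, a log2 ratio of 0.33. Its main transcript Serping1-201 held 99.6% and 99.1% of that level. Cd55 (chromosome 1, 130439027 to 130462744, minus strand), which speeds the decay of convertases on the cell surface, was at 7.76 against 5.97 FPKM, also a log2 ratio of 0.33. Its transcripts went the same way, with Cd55-201 at 6.69 against 5.22 FPKM and Cd55-204 at 1.07 against 0.75 FPKM. Of all genes tested, 14.5% had a log2 ratio at least as high as either regulator. The copy Cd55b was not listed, and 9.39% of the 75-base stretches of Cd55-201 occur in Cd55b-201.

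Proportions of C3, and of C1ra with C1s1, to the regulator Serping1 therefore differed between the libraries. C3 was at 1.53 times the level of Serping1 with CHAPIR and 0.756 times with NC. C1ra and C1s1 together were at 0.557 times the level of Serping1 against 0.418 times. That sum leaves out C1rb (0 against 1.74 FPKM), which would raise the NC quotient only and narrow the difference.

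Other complement genes were taken from a list of 50 that holds none of the 9. Of these, 25 were measured at 1 FPKM or above in either library, 5 were listed only below that level and 20 were not listed, among them C1s2, C4a, Hc (the gene of C5), C9 and Cd55b. Among the 25, 5 were 1.5-fold higher and 4 were 1.5-fold lower, with a median log2 ratio of 0.16, against 6.81% higher, 3.85% lower and a median of 0.01 over all genes. The list as a whole was thus mixed in direction.

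The 5 higher genes were C1s1 and 4 others. The most abundant transcript of C1s1, C1s1-204, was at 16.4 against 12.3 FPKM and stayed under 1.5-fold. Its transcript C1s1-203 was at 12.4 against 5.55 FPKM. C7, a component of the membrane attack complex, was at 4.602 against 0.56 FPKM. Itgb2 and Itgam, which encode the chains of complement receptor CR3 on leukocytes, were at 7.23 against 2.70 FPKM and 3.90 against 1.71 FPKM. For Itgam this rested on Itgam-201 (1.16 FPKM) and Itgam-205 (1.66 FPKM), both listed at 0 for NC, since its other transcript Itgam-203 went the other way, at 1.08 against 1.71 FPKM. Vsig4, the complement receptor of tissue macrophages, was at 5.003 against 2.06 FPKM. C3ar1, the receptor of the C3a fragment, was at 5.05 against 3.16 FPKM and stayed under 1.5-fold.

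The 4 lower genes were C1rb, given above, and Cfd, Cd59b and Cfhr2. Cfd, the protease of the alternative pathway that activates factor B and is secreted by fat cells, was at 13.5 FPKM with CHAPIR and 34.3 FPKM with NC, opposite in direction to Cfb. The other 8 measured white adipocyte markers had a median log2 ratio of -1.81, and 5 of them were 1.5-fold lower. They ran from Car3 (6.37 against 49.97 FPKM) to Fabp4, the most abundant (422 against 423 FPKM). Their sums of 448 against 517 FPKM were mostly Fabp4. Their part in the value of Cfd was not tested. Cd59b, which blocks the membrane attack complex, was at 2.11 against 4.43 FPKM, and its copy Cd59a at 10.03 against 12.3 FPKM. For Cd59b this rested on Cd59b-203, at 0.30 against 2.10 FPKM. Its transcripts Cd59b-201 (0.67 against 0.87 FPKM) and Cd59b-204 (1.15 against 1.45 FPKM) stayed under 1.5-fold. Cfhr2 was at 0.082 against 1.83 FPKM.

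Most regulators and several recognition genes differed little. Cr1l, a mouse regulator of C3 convertases, was at 23.3 against 25.0 FPKM. The chaperone-like regulator Clu was the most abundant gene of the list, at 296 against 284 FPKM. The log2 ratios of Vtn, Pros1, Colec11, Colec12, Fcna, Masp1, Cfp, C5ar1, Cd93 and C1qbp lay between -0.24 (Masp1) and 0.47 (Cfp).

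**Figure D4:**
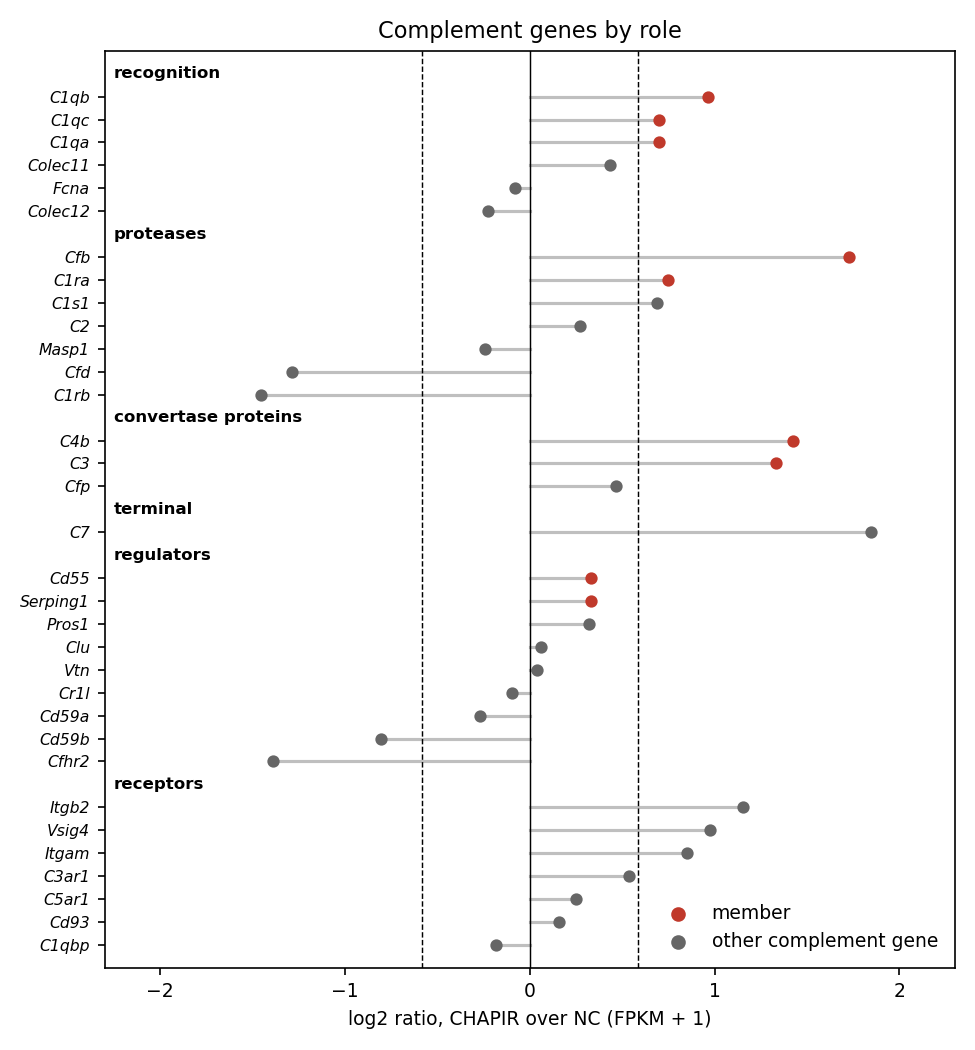
Log2 ratio of CHAPIR over NC (FPKM + 1) for the 9 complement genes (red) and 24 other measured complement genes (grey) by role, with dashed lines at 1.5-fold in either direction. Red points in recognition, protease and convertase roles lie beyond the upper line, and the regulators Serping1 and Cd55 do not. Of the grey points, C7 (1.85), Itgb2 (1.15), Vsig4 (0.97), Itgam (0.85) and C1s1 (0.69) lie beyond the upper line. C1rb (-1.46), Cfhr2 (-1.39), Cfd (-1.29) and Cd59b (-0.80) lie beyond the lower line.

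Position on chromosome 17 was shared by C4b, Cfb and C2 within the class III region of the major histocompatibility complex, where C4b and Cfb are 112 kb apart. The 4 measured genes between them were not higher as a group. Stk19 was at 4.01 against 4.81 FPKM, Dxo at 3.25 against 4.71, Skiv2l at 2.07 against 4.14 and Nelfe at 5.01 against 4.14 FPKM, so 3 of the 4 had lower values in the CHAPIR library. Of the 7 measured neighbours of C4b within 100 kb, 0 were 1.5-fold higher and 1 was lower, and of the 9 neighbours of Cfb likewise 0 and 1. Among the 3 measured neighbours of C3, Vav1, a signalling protein of blood cells, was 1.5-fold higher at 2.04 against 0.83 FPKM. Among the 10 of Serping1, 1 was 1.5-fold higher and 1 was lower. These were Ube2l6, an interferon-induced ubiquitin-like conjugating enzyme, at 20.6 against 9.25 FPKM, and Gm19426 at 0.396 against 1.22 FPKM.

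Macrophage markers had higher values in the library where the complement genes did, as did 9 of the 12 fibroblast markers. Past 1.5-fold higher were 11 of the 20 macrophage markers, 2 of the 12 fibroblast markers and 6.81% of all genes tested. In whole tissue, more cells of a type and more RNA per cell cannot be told apart. All 20 macrophage markers, none of them a complement gene, had higher values in the CHAPIR library, 11 of them by 1.5-fold, with a median log2 ratio of 0.67 and summed levels of 454 against 259 FPKM. The range ran from Cd14 (4.31 against 3.85 FPKM) to Ctss (49.8 against 21.1 FPKM). The summed C1q chains were at 0.496 times the summed macrophage markers with CHAPIR and 0.498 times with NC, so C1q and the marker sum differed by nearly the same factor. That sum is weighted to abundant genes, with Lyz2 alone at 196 against 110 FPKM. Gene by gene the match was looser, with a log2 ratio of 0.80 for the summed C1q chains against the marker median of 0.67. C3 was at 0.294 times the marker sum against 0.202 times, and C4b at 0.0477 times against 0.0288 times. Both were thus higher in the CHAPIR library by more than the marker sum was. The part of macrophages in these differences was not tested.

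The 12 fibroblast markers summed to 1184 against 1085 FPKM, with 2 higher and 0 lower at 1.5-fold and a median of 0.23. Their range ran from Tcf21 (7.62 against 8.93 FPKM) to Col3a1 (66.7 against 37.4 FPKM). C3 was at 11.3% of the fibroblast sum with CHAPIR and 4.82% with NC, and C1ra at 1.46% and 0.911%. Serping1 was at 7.37% and 6.38%, which is the member nearest to an equal proportion. The 10 endothelial markers summed to 263 against 246 FPKM, from Emcn (21.1 against 25.4) to Kdr (41.4 against 32.4 FPKM).

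Hepatocyte transcripts were nearly absent. Of 12 hepatocyte markers 8 were not measured, among them Alb, Apoa1, Apob, Ttr and the fibrinogen genes Fga, Fgb and Fgg, and the other 4 summed to 18.8 against 14.9 FPKM, from Cyp2e1 (4.58 against 6.03 FPKM) to Hp (5.22 against 3.02 FPKM). C3 alone was at 133 against 52.3 FPKM. The part of hepatocytes in the complement values was not tested. Of 10 neutrophil markers 4 were measured, with sums of 24.7 against 5.83 FPKM, from Csf3r (1.10 against 0.54 FPKM) to S100a9 (15.1 against 2.93 FPKM), and their part in the complement values was not tested.

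Interferons and interleukin-6 are known to induce complement genes. All 20 interferon-response genes were more than 2-fold higher in the CHAPIR library, with a median log2 ratio of 1.496, from B2m (1045 against 519 FPKM) to Igtp (204 against 31.9 FPKM). Of all genes tested, 2.58% were 2-fold higher. That list was chosen with earlier results of these data known, so its count and its lowest ratio of 1.01 are a description only. With all listed transcripts summed, the ratios of C4b, Cfb and C3 lay within the range of that list. C1qb, at 0.97, lay just under its lowest ratio, and C1qa, C1qc, C1ra, Serping1 and Cd55 lay further below. Without its transcripts listed at 0, Cfb was at 0.31 and lay below it too. Of 13 measured acute phase and interleukin-6 response genes 6 were 1.5-fold higher and 0 lower, with a median of 0.51, from Il6ra (1.34 against 1.72 FPKM) to Saa3 (8.90 FPKM, against a listed 0). The log2 ratios of these genes ran from -0.22 to 3.31, a range that holds all 9 complement genes. Those of the macrophage markers ran from 0.13 to 1.20, a range that holds the C1q chains, C1ra, Serping1 and Cd55. The part of the interferon and acute phase responses in the complement values was not tested.

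**Figure D5:**
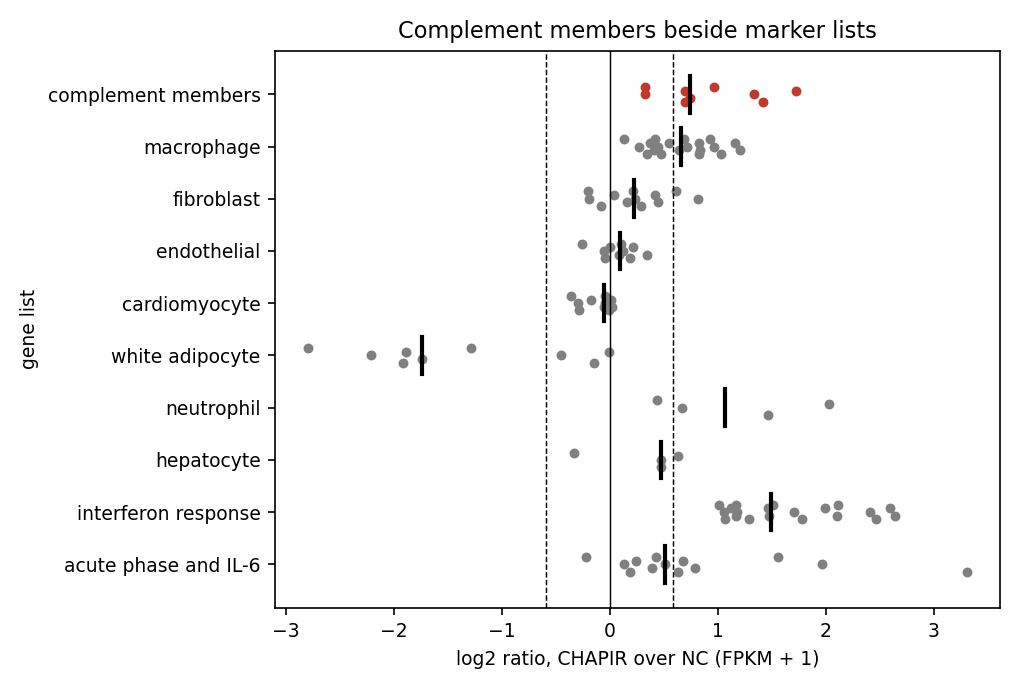
Log2 ratio of CHAPIR over NC (FPKM + 1) of each measured gene (points) and the median (black bar) for the 9 complement genes (red) and for marker and response lists (grey), with dashed lines at 1.5-fold. The medians are 0.75 for the complement genes, 0.67 for macrophage markers, 0.23 for fibroblast markers, -0.05 for cardiomyocyte markers and 1.496 for the interferon-response genes.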

How the data were processed

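The deposited values, 1 for each transcript in each library, were read as FPKM made by the authors. That unit was inferred from the values, since no label or header names it. FPKM and TPM differ by 1 constant factor per library, so proportions within a library would hold in either unit. Cutadapt, HISAT2 2.0.5, StringTie, STAR 2.5.2b and the build GRCm38 are named without roles in the submitters' processing notes, and libraries were made from randomly primed cDNA with dUTP in its second strand, per the labels' protocols. Their annotation version, not given in the sources used here, may differ from M21.

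Of 23178 transcripts, 23128 matched GENCODE M21, 99.7% of them protein coding, and 50 were left out. Listed transcripts were summed per gene, and genes reaching 1 FPKM in either library were counted at 1.5-fold and 2-fold with a pseudocount of 1 (Python 3.11.15, pandas 2.3.3, numpy 2.4.6). Transcripts were aligned with Biopython 1.88. The counting was run on simulated data with planted changes larger than 1.5-fold, which checks the code and not the calls in these data. Single libraries allow no test, and depth is unknown, so no counting interval is given.

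The complement genes and the lists were chosen with earlier results of these data known. Named are all 9 genes, the measured genes of the complement list except 1 that is not reported here, the copies, and the highest and lowest gene of each other list by log2 ratio. Neighbours, motifs, quotients and the other genes named were chosen after values were seen. No other gene is named for likeness of pattern, since 2 libraries give 1 ratio. Alternatives were other pseudocounts, filters, scalings and transcript choices.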

Additional observations from a re-analysis of the deposited data

How the results depend on the processing

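No paired analysis was possible because CHAPIR and NC had 1 library each. Over 8 planned settings and 2 chosen after seeing the data (equal sums, and transcripts above 0 in both libraries only), and with C1ra and C1rb summed, every log2 ratio of the 9 genes stayed above 0. The count at 1.5-fold higher was 6 or 7, with 0 lower. It was 6 at a pseudocount of 5, where C1ra (0.582) fell under the line, and 6 with transcripts above 0 in both libraries only, where the 2-fold count was 2. Summed with C1rb, C1ra was at 0.53, which also leaves 6. Values of Cfb were the ones that changed by more than the SD of genes of like level. Its log2 ratio of 1.73 became 1.02 at a pseudocount of 5, 0.31 with transcripts above 0 in both libraries only, because 2 transcripts were then left out, and 2.59 with the most abundant transcript only, which is listed at 0 in the NC library, so that value depends on the pseudocount and is no bound. The median of the 9 genes ranged from 0.66 at a pseudocount of 5 to 0.80 at a pseudocount of 0.1. Of the complement list, 5 genes higher became 3 at a pseudocount of 5, 1 when genes had to average 5 FPKM and 3 with only the most abundant transcript, and 4 lower became 1 in each of the first 2 of these settings. The filter leaves fewer genes, and a larger pseudocount shrinks ratios of low genes. The share of all genes 1.5-fold higher ranged from 2.37% at a pseudocount of 5 to 10.7% with the most abundant transcript only.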
